A study of Mus musculus with 6 samples.

Results

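The 9 genes described here are part of the MHC class II genes measured in mouse gut, together with Ciita, the gene of their master activator. They were taken by gene name from deposited counts of 56362 features, and each of the 9 names matched 1 feature. The RNA came from the intestine of BALB/c mice, in 2 groups of 3 mice with 1 library each, called WT (wild type) and FC (knockout of FcεRIα, a subunit of the IgE receptor of mast cells and basophils). No other allele, agent, age or sex was named, although DSS, unexplained in the labels, is part of every sample title in both groups. The tissue label says intestine and the series title speaks of epithelial cells. No group without DSS in its title was used here.

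MHC class II molecules are pairs of an alpha and a beta chain that carry peptides from the endosome to the cell surface, where CD4+ T cells read them. H2-Aa and H2-Ab1 encode the chains of I-A, and H2-Eb1 the beta chain of I-E. Cd74 encodes the invariant chain, which escorts new class II molecules and blocks their groove until it is degraded. H2-DM, made of H2-DMa with H2-DMb1 or H2-DMb2, exchanges the last invariant chain fragment for a peptide, and H2-O, of which H2-Ob is the beta chain, restrains H2-DM and is best known from B cells. Ciita does not bind DNA itself but joins the factors RFX, CREB and NF-Y on the X and Y boxes of these promoters. B cells, dendritic cells and macrophages express class II constitutively or on activation, and the gut epithelium does so when interferon gamma induces Ciita.

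Stretches of 5 promoters are shown because they carry the letters of boxes through which Ciita is known to act. They belong to class II genes that moved alike across libraries and to H2-Ob, which followed them less closely. The stretches come from RefSeq on GRCm38.p6, whose table of windows from 250 bases before to 50 bases after each start held 6 of the 9 genes. Ciita, Cd74 and H2-Ab1 were not among them. Capitals mark TGATTGG, the core of the Y box bound by NF-Y, and AACNNATG, a core of the X box bound by RFX. Both were searched on both strands, they did not overlap, and they were chosen with these promoters in view.
H2-Aa: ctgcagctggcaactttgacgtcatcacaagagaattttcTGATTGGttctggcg
H2-Eb1: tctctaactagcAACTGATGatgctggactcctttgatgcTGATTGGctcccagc
H2-DMb1: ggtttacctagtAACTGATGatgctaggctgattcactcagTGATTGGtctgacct
H2-DMb2: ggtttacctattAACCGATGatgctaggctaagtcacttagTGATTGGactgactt
H2-Ob: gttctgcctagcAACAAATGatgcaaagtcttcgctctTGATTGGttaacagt

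The stretch of H2-Aa lies at chr17:34287859-34287913 on the minus strand. The others lie on the plus strand at chr17:34305766-34305820 (H2-Eb1), chr17:34153087-34153142 (H2-DMb1), chr17:34145116-34145171 (H2-DMb2) and chr17:34238808-34238860 (H2-Ob). The Y box letters began 50 to 92 bases before the start in all 5, always on the strand of the gene. Where the X box letters stood upstream of them, 18 to 21 bases lay between the boxes. H2-Aa held the Y box letters without these X box letters, and H2-DMa held neither at its 2 listed starts. Of all 32851 promoter windows, 7.82% held the Y box letters, 8.86% the X box letters and 0.785% both. Of the 6 genes with a window, 4 held both, which is a description only, since the letters were chosen with these promoters in view. The promoter of H2-Ob carries the same letters as those of H2-Eb1, H2-DMb1 and H2-DMb2. What these letters mean for its levels was not tested.

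The genes stand on 3 chromosomes in GENCODE vM21 on GRCm38. Ciita (ENSMUSG00000022504) lies on chromosome 16 from 10480059 to 10528418 and Cd74 (ENSMUSG00000024610) on chromosome 18 from 60803848 to 60812652. The other 7 lie within the class II region of chromosome 17, from H2-DMa, which starts at 34119541, to H2-Eb1, which ends at 34316674. Totals ran from 19031811 to 23092344 counts per library. WT library 1 stood apart, with 6.83% of its counts in the mitochondrial gene mt-Co1 against 1.45% to 2.28% in the other 5. Fcer1a, the targeted gene, had 0, 10 and 18 counts in WT libraries 1 to 3, against 1, 0 and 0 in FC libraries, so it could not check the label of WT library 1. Levels are given as CPM, counts scaled to a common library total after TMM adjustment, and the ± values are SDs.

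Ciita showed higher levels in FC gut, but did not pass the test. It stood at 37.5, 11.6 and 38.3 CPM in WT libraries 1 to 3, against 92.9, 99.4 and 43.4 CPM in FC libraries 1, 2 and 3. Every FC library lay above every WT library, with FC library 3 close to the WT ones. The means were 29.1 ± 15.2 CPM (n = 3) in WT, against 78.6 ± 30.6 CPM in FC gut. The log2 fold change was 1.43 (SE 0.52, 95% interval 0.20 to 2.67), with an unadjusted p of 0.0289 and an adjusted p of 0.71 by edgeR's quasi-likelihood test. Among the 16732 genes tested, 0% (0 genes) passed at an adjusted p under 0.05, 4.54% had an unadjusted p under 0.05 with knockout higher, and 8.74% had all FC libraries above all WT libraries. Ciita was the only 1 of the 9 genes in either of the last 2 classes. In bulk RNA, more cells of a type and more RNA per cell cannot be told apart. Without scaling factors its groups overlapped, and without FC library 1 or 2 its unadjusted p was 0.0894 or 0.101.

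Cd74, the invariant chain gene, was the most abundant of the 9 per length of transcript and overlapped between the groups. It stood at 2306, 341 and 1074 CPM in WT libraries 1 to 3, against 2386, 2638 and 1267 CPM in FC libraries. WT library 1 lay within the FC range, and WT library 2 lay far below all others. The log2 fold change was 0.76 (SE 0.67, 95% interval -0.85 to 2.36), with an adjusted p of 0.836 by edgeR. The interval holds differences in both directions.

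The peptide-binding chains followed Cd74. H2-Ab1, the beta chain of I-A, stood at 809.8, 148 and 410 CPM in WT, against 829.6, 883 and 418 CPM in FC libraries. H2-Aa, its alpha chain partner, stood at 715, 120.4 and 344 CPM in WT, against 689, 708 and 317 CPM in FC libraries. H2-Eb1, the beta chain of I-E, stood at 500.3, 96.7 and 278 CPM in WT, against 518, 557 and 266 CPM in FC libraries. In each of the 3, WT library 1 and FC libraries 1 and 2 were high, WT library 3 and FC library 3 stood at a middle level, and WT library 2 was low. Their log2 fold changes were 0.64 (SE 0.61) for H2-Ab1, 0.54 (SE 0.64) for H2-Aa and 0.62 (SE 0.59) for H2-Eb1. None passed edgeR's test, at adjusted p-values of 0.848, 0.872 and 0.848. The deposited counts of H2-Ab1 and H2-Eb1 were fractional in all 6 libraries but summed to a whole number (within 0.015) in 6 of 6, so reads had been divided between these genes. Their summed counts, fitted as 1 gene after this was seen, gave a log2 fold change of 0.63.

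**Figure D1:**
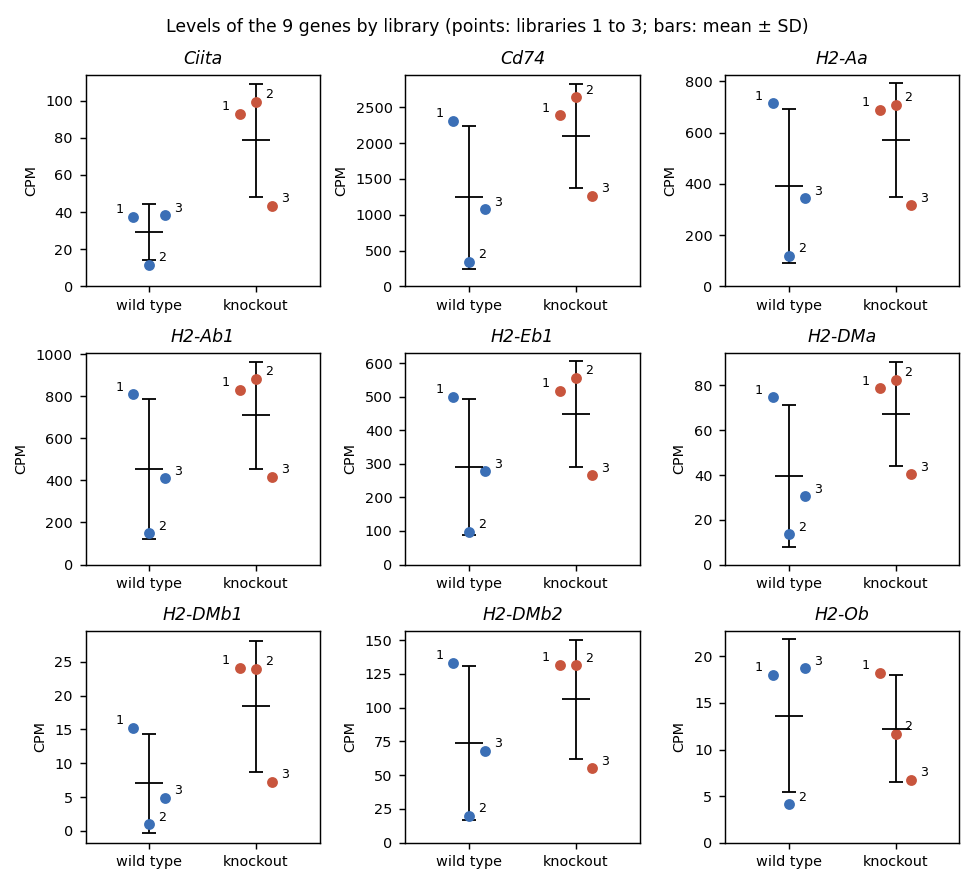
Levels of the 9 genes in CPM (y axis, linear) in wild type and FC gut (x axis), with 1 point per library numbered 1 to 3 and bars for the mean ± SD. The FC points lie above all wild type points in Ciita alone, from 43.4 CPM against at most 38.3 CPM.

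The peptide-loading chains ran at lower levels with a similar order of libraries. H2-DMa, the alpha chain of H2-DM, stood at 74.8, 13.5 and 30.4 CPM in WT, against 78.7, 82.5 and 40.3 CPM in FC libraries, a log2 fold change of 0.77 (SE 0.61). H2-DMb2, a beta chain, stood at 133, 19.9 and 68.2 CPM in WT, against 132, 131 and 55.1 CPM in FC libraries, a log2 fold change of 0.52 (SE 0.66). H2-DMb1, the other beta chain, stood at 15.2, 0.991 and 4.89 CPM in WT, against 24.1, 23.9 and 7.24 CPM in FC libraries, a log2 fold change of 1.40 (SE 0.93). WT library 1 lay above FC library 3 in all 3 genes, and none passed edgeR's test (adjusted p = 0.829, 0.877 and 0.80). The low level of H2-DMb1 in WT library 2 rests on 24 counts.

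H2-DMb1 and H2-DMb2 are near copies, with 94.7% identity over 1246 aligned bases of their main transcripts and a shared run of 221 bases, so their counts are uncertain one against the other. The deposited counts of both were fractional in every library and summed to a whole number (within 0.015) in 3 of 6. H2-DMb1 held 11.4, 4.98 and 7.17 counts per 100 counts of H2-DMb2 in WT libraries 1 to 3, against 18.3, 18.2 and 13.1 in FC libraries. The groups did not overlap in this ratio, which was 2.21-fold higher in FC gut (exact permutation test, two-sided, p = 0.10, the smallest that 3 against 3 allows, and 0.167 adjusted over 5 ratios). The lowest FC value had a 95% interval of 11.1 to 15.5 and the highest wild type value one of 9.96 to 13.0, from counting error only, so these intervals overlapped. The sum of both genes stood at 148, 20.9 and 73.1 CPM in WT, against 156, 155 and 62.4 CPM in FC libraries. Fitted as 1 gene, after these counts were seen, the sum gave a log2 fold change of 0.62 (SE 0.69), under the 1.40 of H2-DMb1 alone. H2-DMa overlaps Brd2, a gene on the other strand, and Ciita overlaps Dexi in the same way. Brd2 differed by 0.07 and Dexi by 0.35 on the log2 scale, and the strand setting of the counting is not given in the sources used here.

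H2-Ob, the beta chain of H2-O, followed the others less closely, though WT library 2 was its lowest, as in all 9 genes. It stood at 18.0, 4.13 and 18.7 CPM in WT, against 18.2, 11.7 and 6.76 CPM in FC libraries. WT library 3, of middle level in the other class II genes, was the highest here, and FC library 2, the highest in Cd74, fell behind 3 libraries. The log2 fold change was -0.15 (SE 0.62, 95% interval -1.63 to 1.32), with an adjusted p of 0.963 by edgeR, and its sign changed under 5 of 14 alternatives.

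Of the 9 genes, 8 had a positive log2 fold change and 1, H2-Ob, a negative one, and 0 passed the test. The median of the 9 was 0.64, against -0.05 over all genes tested, of which 44.2% had a positive fold change. The median was 1.29 without WT library 1, 0.22 without WT library 2, 0.44 and 0.42 without FC libraries 1 and 2, and 0.91 without FC library 3. Without WT library 1, 4 of the 9 genes had all FC libraries above the wild type ones, and so had 22.7% of all genes. Leaving out FC library 3 gave 6 of the 9 and 13.2% of all genes. Genes of this list share their activator and their cells, so they are not independent of each other.

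**Figure D2:**
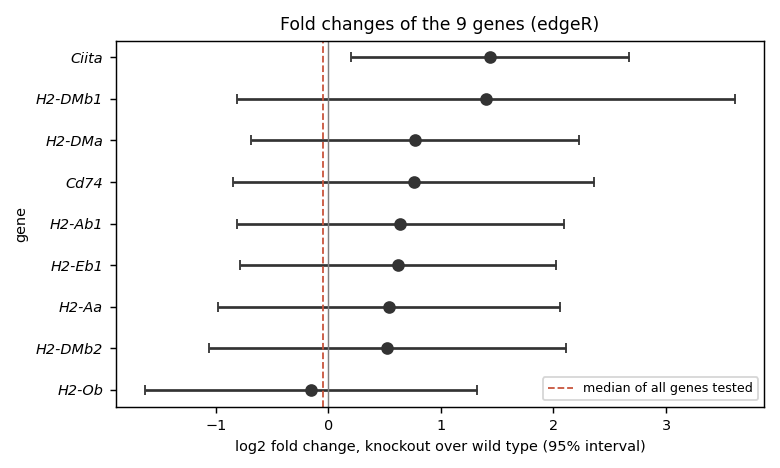
Log2 fold changes of the 9 genes, knockout over wild type (x axis), with 95% intervals from edgeR and the median of all genes tested as a dashed line. The interval of Ciita (0.20 to 2.67) lies above 0, and those of the other 8 genes hold 0.

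Within a library, the class II genes kept nearly fixed proportions to Cd74, which do not depend on scaling. Over the 6 libraries Cd74 itself varied 7.74-fold in CPM, while the counts of H2-Ab1 per Cd74 count varied 1.32-fold, those of H2-Eb1 1.35-fold, those of H2-DMa 1.39-fold, those of H2-Aa 1.41-fold and those of H2-DMb2 1.46-fold. Ciita varied 2.40-fold against Cd74, H2-DMb1 3.48-fold and H2-Ob 3.92-fold. The proportions of H2-Ab1 were 351, 435 and 382 counts per 1000 Cd74 counts in WT, against 348, 335 and 330 in FC libraries. Those of H2-Aa were 310, 353 and 320 in WT, against 289, 268 and 249.98 in FC libraries. Those of H2-DMb2 were 57.8, 58.4 and 63.5 in WT, against 55.2, 49.7 and 43.5 in FC libraries. In these 3 genes every FC library was below every WT library against Cd74, while H2-Eb1 and H2-DMa overlapped. This difference was seen in the data and not tested. The separation was narrow for H2-Ab1, at 351 in WT library 1 against 348 in FC library 1. All these proportions share the Cd74 counts, so they are not separate observations, and the share of all genes that separate against Cd74 was not computed.

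The spread of Ciita against Cd74 came from a single library. Ciita held 16.3, 34.0 and 35.6 counts per 1000 Cd74 counts in WT libraries 1 to 3, against 38.9, 37.7 and 34.3 in FC libraries. WT library 1 had a 95% interval of 14.97 to 17.6 from counting error, and the lowest bound of the other 5 libraries was 30.1. The ratio was 1.37-fold higher in FC gut (exact permutation test, two-sided, p = 0.20, 0.20 adjusted over 5 ratios), with overlapping groups. Without WT library 1 the log2 difference was 0.08 in place of 0.45. That library thus had class II levels like those of FC libraries 1 and 2 with a lower Ciita level (37.5 against 92.9 and 99.4 CPM).

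The remaining ratios tested concerned chain pairs and H2-Ob. H2-Aa stood at 0.883, 0.811 and 0.837 counts per count of H2-Ab1 in WT, against 0.83, 0.802 and 0.758 in FC libraries, with overlapping groups (exact permutation p = 0.20, two-sided). H2-DMa stood at 0.105, 0.112 and 0.0886 counts per count of H2-Aa in WT, against 0.114, 0.116 and 0.127 in FC libraries. These groups did not overlap, at 1.18-fold (exact permutation p = 0.10, two-sided, and 0.167 adjusted over 5 ratios). H2-Ob against Cd74 did not overlap either, with 7.81, 12.1 and 17.4 counts per 1000 Cd74 counts in WT, against 7.63, 4.44 and 5.34 in FC libraries, a ratio of 0.479 between the groups (exact permutation p = 0.10, two-sided, and 0.167 adjusted over 5 ratios). The intervals from counting error of WT library 1 (6.94 to 8.77) and FC library 1 (6.89 to 8.44) overlapped almost wholly.

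**Figure D3:**
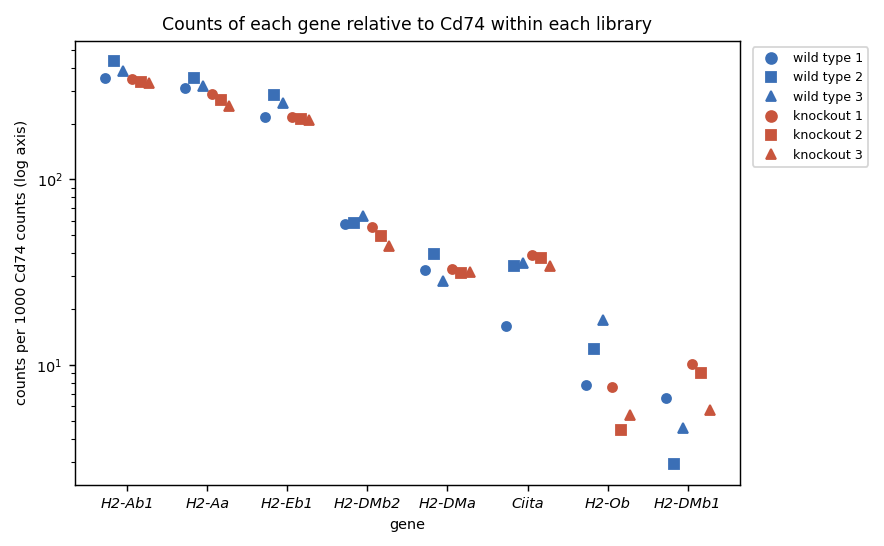
Counts of 8 genes per 1000 counts of Cd74 within each library (y axis, log scale), by gene (x axis), with color for the group and shape for the replicate number. WT library 1 stands alone in Ciita at 16.3 against 34.0 to 38.9, and H2-Ob runs from 7.81 to 17.4 in wild type and from 4.44 to 7.63 in FC libraries.

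Per length of transcript, the genes formed tiers. Levels in CPM per kilobase of the deposited gene length had medians over the 6 libraries of 1267 for Cd74, 506 for H2-Ab1, 458 for H2-Aa and 332 for H2-Eb1. The H2-DM genes followed with 70.0 for H2-DMb2 and 51.9 for H2-DMa. The lowest tier held Ciita at 9.64, H2-Ob at 9.01 and H2-DMb1 at 7.996. Neighbours within a tier, such as H2-Ab1 and H2-Aa or Ciita and H2-Ob, overlapped in their ranges over the libraries, which ran from 122 to 728 for H2-Ab1 and from 107 to 634 for H2-Aa.

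Another 3 class II genes of the region fell into the same 2 patterns. H2-Ea, the alpha chain of I-E, was measured at 222, 59.4 and 145 CPM in WT, against 213, 258 and 123 CPM in FC libraries. Its identifier is named H2-Ea-ps, a pseudogene, in GENCODE, since the reference strain C57BL/6 does not express it, whereas BALB/c mice make I-E. It was thus expressed in all 6 libraries, and its levels ran with H2-Eb1. H2-Oa, the alpha chain of H2-O, stood at 3.55, 1.53 and 5.48 CPM in WT, against 5.01, 2.99 and 1.13 CPM in FC libraries. H2-Eb2, a beta chain gene of little known function, stood at 2.18, 0.826 and 4.21 CPM in WT, against 4.02, 2.52 and 1.22 CPM in FC libraries. Both were highest in WT library 3, as H2-Ob was, and their log2 fold changes were -0.21 and 0.10. None of the 3 passed edgeR's test, the smallest adjusted p being 0.855.

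Markers of B cells had nearly the library order of H2-Ob, with WT library 2 lowest and WT library 3 highest. The 12 B cell markers summed to 309, 69.7 and 362 CPM in WT libraries 1 to 3, against 237, 170 and 97.2 CPM in FC libraries. All 12 were measured in every library, and all 12 had a negative log2 fold change (median -0.51), with 0 passing edgeR's test. Those of smallest p were Cd79a, a chain of the B cell receptor complex, at -0.80 (SE 0.56), Fcrla, at -0.81 (SE 0.57), and Fcer2a, the low-affinity IgE receptor, at -0.90 (SE 0.69). The part of B cells in the H2-Ob values was not tested.

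Summed markers of the other cell types that can carry class II did not have the library order of the B cell markers. The 12 epithelial markers summed to 24072, 12923 and 11809 CPM in WT, against 21532, 20518 and 18206 CPM in FC libraries, so WT library 1 was high and WT libraries 2 and 3 low, and 11 of 12 had a positive fold change (median 0.34). The 10 macrophage markers summed to 483, 310.5 and 594 CPM in WT, against 324, 829 and 425 CPM in FC libraries, a median log2 fold change of 0.30. Cd14 alone made up 323 of the 483 CPM in WT library 1, and was the 1 of the 10 with a negative fold change (-0.17). Csf1r, by contrast, was lowest in WT library 1, at 29.0, 37.8 and 101 CPM in WT, against 40.1, 154 and 61.9 CPM in FC libraries. The order of the sum is thus not that of each marker. The 10 dendritic cell markers summed to 26.6, 32.3 and 63.2 CPM in WT, against 38.5, 75.8 and 44.4 CPM in FC libraries, with 5 of the 9 tested positive (median 0.22). Xcr1, a marker of cross-presenting dendritic cells, was the 1 of these whose groups did not overlap, at 0.811, 0.289 and 1.63 CPM in WT, against 1.80, 4.201 and 1.83 CPM in FC libraries, as in 8.74% of all genes tested. Others of the list had negative fold changes, such as Cd209a at -0.91 (SE 0.73). Fibroblast markers, for cells with little class II, summed to 415, 2780 and 3778 CPM in WT, against 543, 2240 and 1549 CPM in FC libraries. They were lowest in WT library 1 and FC library 1, both high in Cd74. FC library 2, the highest in Cd74, lay above FC library 3 in these markers. No gene of these 4 lists had an adjusted p under 0.05 (edgeR), and the part of tissue makeup in the class II values was not tested.

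**Figure D4:**
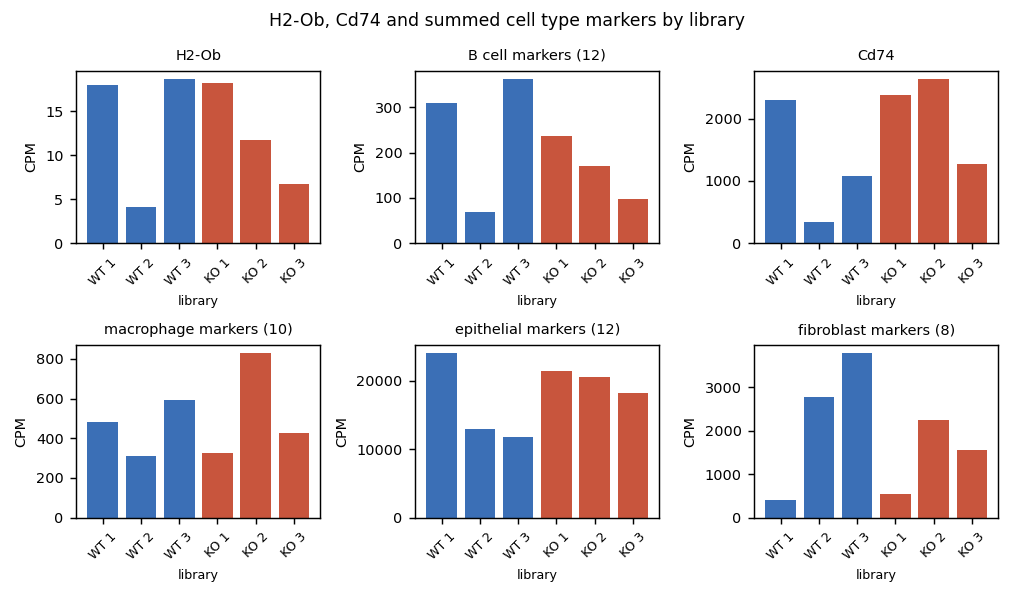
H2-Ob and Cd74 levels and the summed levels of marker lists, in CPM (y axes, linear, from 0), by library (x axis). H2-Ob and the B cell markers are both lowest in WT library 2 and highest in WT library 3, while Cd74 is highest in FC library 2. In WT library 1, Cd14 alone makes up 323 of the 483 CPM of the macrophage sum.

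Upstream of Ciita, genes of the interferon gamma response had positive fold changes without passing the test. Of 10 listed genes of this step, 9 had a positive fold change (median 0.20) and 0 passed at an adjusted p under 0.05. Socs1, a feedback inhibitor of the pathway, stood at 28.1, 8.05 and 11.6 CPM in WT, against 77.4, 47.9 and 28 CPM in FC libraries, a log2 fold change of 1.69 (SE 0.56). Ifng itself was near the limit of counting, with 0, 2 and 1 counts in WT, against 14, 12 and 11 in FC libraries. In Ifng every FC library lay above every WT library, as in 8.74% of all genes tested. In Socs1 WT library 1 reached FC library 3. Irf1, an interferon-induced transcription factor that acts on the Ciita promoter, stood at 367, 138 and 139 CPM in WT, against 493, 462 and 297 CPM in FC libraries. The receptor chains and kinases differed less, at 0.18 for Ifngr1, 0.22 for Ifngr2, 0.09 for Jak1 and 0.11 for Jak2, each with overlapping groups.

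**Figure D5:**
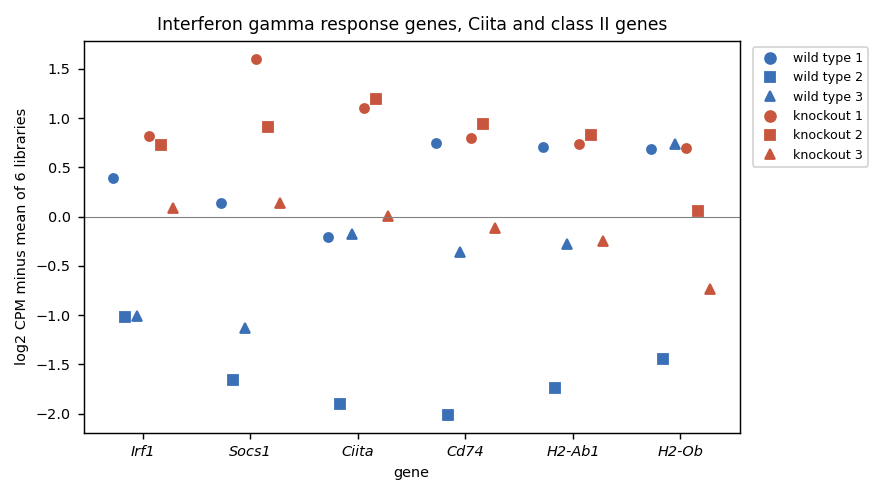
Log2 CPM minus the mean of the 6 libraries (y axis) for interferon gamma response genes, Ciita and class II genes (x axis), with color for the group and shape for the replicate number. WT library 1 lies below every FC library in Ciita (37.5 against at least 43.4 CPM), and among them in Irf1, Socs1, Cd74, H2-Ab1 and H2-Ob.

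The factors that Ciita joins on the promoters varied little. Of 7 genes of RFX, NF-Y and Creb1, 3 had a positive and 4 a negative fold change, with a median of -0.05 and 0 past the test. Rfx5, the DNA-binding subunit of RFX, stood at 17.9, 13.5 and 15.1 CPM in WT, against 17.2, 19.6 and 14.4 CPM in FC libraries. Those of smallest p were Nfyb, a subunit of NF-Y, at -0.40 (SE 0.18), Creb1 at -0.24 (SE 0.15) and Nfyc, another NF-Y subunit, at 0.21 (SE 0.16). In Nfyb and Creb1 every FC library lay below every WT library, as in 4.27% of all genes tested.

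Genes of class II processing and turnover showed no shared direction. Of 10 such genes, 7 had a positive and 3 a negative fold change (median 0.05), and 0 passed the test. Ctsl, the gene of cathepsin L, a protease that can degrade the invariant chain, stood at 166, 253 and 222 CPM in WT, against 84.8, 155 and 119.5 CPM in FC libraries, a log2 fold change of -0.83 (SE 0.27). In Ctsl every FC library lay below every WT library, as in 4.27% of all genes tested. It was the 1 gene of the list with an unadjusted p under 0.05 (0.0195, adjusted 0.687, edgeR), as 2.30% of all genes had with knockout lower. Ctss, for cathepsin S, the main invariant chain protease of B cells and dendritic cells, differed by 0.41 (SE 0.34). Sppl2a, the membrane protease that clears the remnant of the invariant chain, stood at 419, 265 and 257 CPM in WT, against 554, 476 and 401 CPM in FC libraries, a log2 fold change of 0.61 (SE 0.26). Marchf8, a ubiquitin ligase that removes class II from the surface of some cells, stood at 66.3, 75.2 and 79.4 CPM in WT, against 90.3, 84.4 and 81.2 CPM in FC libraries, without overlap, as in 8.74% of all genes tested.

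Among the named protein-coding genes outside the list, those that most closely matched the mean of the 9 genes over the 6 libraries had other functions and varied much less. Among 11012 named protein-coding genes above 5 CPM, those with the highest Pearson correlation to that mean were Borcs6 (r = 0.997), Ghdc (0.994), Kdm4c (0.992), Hpcal1 (0.988), Tpcn2 (0.987), Rdh14 (0.987), Sp100 (0.986) and Arhgef19 (0.986). These values describe 6 libraries, shared by all genes, and so many candidates can reach high values in 6 points. Sp100, a gene of nuclear bodies known to respond to interferon, stood at 76.7, 23.9 and 47.6 CPM in WT, against 71.1, 79.7 and 53.3 CPM in FC libraries. Among the 9 genes the correlation with that mean, of which each is a part, ran from 0.80 for H2-Ob and 0.92 for Ciita to 0.998 for H2-Eb1. It was 0.989 for H2-Ea and 0.581 for H2-Oa, which are not part of it. H2-Ea, a pseudogene in GENCODE, was not among the candidates, although its correlation lay above that of Hpcal1.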

How the data were processed

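RNA of 6 libraries, 3 per group, was sequenced from TruSeq libraries of TRIzol-extracted, DNase-treated RNA, per the labels' protocols. Alignment tool and build, per the submitters' processing notes, were TopHat2 2.0.0 and mm10. How features were counted, from which annotation and with which strand option, is not given in the sources used here. Each deposited file gives estimated counts by gene, with a fractional value in 12.4% to 14.8% of features, and a gene length. Counts were rounded. Groups and replicate numbers came from sample titles, and 3 mice per group from the series' design text. The mm10 reference is of C57BL/6J, whose class II alleles differ from those of BALB/c, and the effect on read alignment was not tested.

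Groups were compared by the quasi-likelihood test of edgeR 4.0.16 (R 4.3.3, TMM factors, filterByExpr with minimum count 10, 16732 genes kept, 39630 dropped), adjusted by Benjamini-Hochberg over all genes tested, threshold 0.05. It was tested on simulated data. Each SE was derived from the log2 fold change and its F statistic. Intervals on count ratios are exact binomial at 95% and cover counting error only. Ratios were tested with SciPy 1.17.1. Alternatives were DESeq2 1.42.0, limma-voom (limma 3.58.1), other scaling and filters, a replicate block and each library left out. The members, lists and tests were chosen with earlier results of these data known. The rule named all 9 genes, the other class II genes of the region, up to 3 genes of smallest p per list and the 8 most alike genes. Irf1, the receptor chains and kinases, Rfx5, Ctss, Lag3, Cd14, Cd209a, Tpsb2 and Ms4a2 were named after their values were seen. Of the genes the rule named, 2 are not reported here.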

Additional observations from a re-analysis of the deposited data

How the results depend on the processing

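Of 16732 genes, edgeR called 0 at an adjusted p under 0.05, with 1145 at an unadjusted p under 0.05, and it called 0 with each library left out. DESeq2 called 125 (85 higher), limma-voom 2, and edgeR without a filter on low counts 3. None of the 9 genes was among the calls under any alternative, the smallest adjusted p being 0.121 (H2-DMa without WT library 1). The median of the 9 genes ran from 0.57 with upper quartile factors to 0.84 by limma-voom, and from 0.22 to 1.29 with 1 library left out. The number of the 9 genes whose groups did not overlap was 1, but 0 without scaling factors and 1 to 6 with 1 library left out. The number with an unadjusted p under 0.05 was 1, and 0 to 4 with 1 library left out (4 without WT library 1, 0 without FC library 1 or FC library 2). H2-Ob changed sign by limma-voom (0.087), with the replicate block (0.0087) and when WT library 1, WT library 3 or FC library 3 was left out (-0.63 to 0.15 over the libraries left out). The causes were not tested. The other 8 genes and the 5 ratios kept their sign throughout. Same-numbered libraries of the groups correlated in their deviations at 0.388, -0.121 and 0.0076. Deviations from a mean of 3 libraries depend on each other, so these values cannot decide whether same-numbered libraries shared more than a number. The replicate block gave 0 calls and a median of 0.83 for the 9 genes. Not every library correlated best with its own number. Depth limits H2-DMb1 and H2-Eb2, with as few as 24 and 20 counts in a library, and Ifng, at 0 to 14.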

Other observations

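Of 7 genes on the T cell side of class II recognition or of costimulation by presenting cells, 6 were tested, all 6 had a negative log2 fold change (median -0.06), and 0 passed edgeR's test. Cd80, a costimulatory ligand, had the smallest p of the list, at -0.58 (SE 0.47). Cd4, the coreceptor that binds class II, stood at 14.2, 11.3 and 40.5 CPM in WT libraries 1 to 3, against 12.01, 27.6 and 14.7 CPM in FC libraries. Lag3, an inhibitory receptor for class II, stood at 3.68, 2.56 and 9.24 CPM in WT, against 4.26, 6.39 and 4.10 CPM in FC libraries. Both were highest in WT library 3, unlike Cd74. The 8 T cell markers were all lower on average (median -0.61) and summed to 39.8, 21.1 and 83.7 CPM in WT, against 35.1, 42.3 and 22.2 CPM in FC libraries.

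Of 6 genes of group 3 innate lymphoid cells, which can present antigen in the gut, 5 were tested, 1 with a positive fold change, and 0 passed the test. Il1r1 differed by -1.31 (SE 0.47) and Ncr1 by 1.43 (SE 0.64) on the log2 scale. Endothelial markers summed to 103, 301 and 477 CPM in WT, against 85.1, 280 and 159 CPM in FC libraries, all 8 with a negative fold change. Mast cell markers, for the cells that carry the deleted receptor chain, summed to 28.2, 45.7 and 54.8 CPM in WT, against 33.6, 30.3 and 40.6 CPM in FC libraries, with 6 of the 7 tested negative and Tpsb2 and Ms4a2 at 0 counts in WT library 1.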
